A study of Mus musculus with 11 samples.

Results

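The 40 genes described here are homeobox genes that lie outside the Hox clusters and act in development: 8 LIM genes (Lhx1 to Lhx6, Lhx8 and Lhx9), 4 sine oculis genes (Six2, Six3, Six4 and Six6), 6 DLX genes, 2 EMX genes, 6 IRX genes, 6 NKX genes, 2 MSX genes, 2 EN genes, 3 TLX genes and Pdx1. They were chosen by family name, and each was followed through the 2 kb tiles that overlap its GRCm38 span extended by 2 kb on either side. All 40 could be measured, among 20717 measured protein-coding genes. They cover 324 tiles, of which 323 were tested, and no tile belongs to more than 1 of them.

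The signal is 5-hydroxymethylcytosine (5hmC), measured by HMCP-seq, a kit-based capture of DNA fragments that carry the mark, followed by sequencing, in 11 libraries of mouse cells. TET_WT, the wild-type parent of a line without Tet1, Tet2 and Tet3, gave 3 libraries of embryonic stem (ES) cells grown in 2i/Lif (day 0), 2 of epiblast-like cells (EpiLC) after 1 day and 3 of EpiLC after 2 days. The other line, DNMT_WT, the wild-type parent of a line without Dnmt1, Dnmt3a and Dnmt3b, gave 3 libraries of EpiLC after 2 days. No group analysed here carries a knock-out. Both lines are wild type, and each is a single cell line.

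TET enzymes make 5hmC by oxidising methylated cytosine, and the turnover of the mark was not measured here. Homeobox genes encode transcription factors that give cells of the brain, limbs, heart, gut and other organs their identity. In ES cells many of them have CpG-rich start regions that carry little methylation and are held silent by Polycomb proteins, and naive ES cells in 2i gain DNA methylation as they become EpiLC. 5hmC in DNA does not report whether a gene is expressed.

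The CpG sites, where methylation and 5hmC mostly lie, are dense before the start sites of these genes. RefSeq promoters (GRCm38.p6) were found for 30 of the 40 genes. None was found for Tlx2, Lhx5, Dlx3, Dlx4, Dlx5, Dlx6, Irx1, Irx5, Irx6 and En2. These genes are therefore missing from the promoter counts and from the start-site results below. The 250 bases before the start site held a median of 15.5 CpG sites in the 30 genes (4 to 30), against 11 in 16601 genes, and 25 of the 30 (83.3%) held at least 10, against 52.8% of all. The promoters below belong to the 2 genes with the highest and the 1 with the lowest (most negative) day 2 minus day 0 difference among those 30 genes, shown 5′ to 3′ on the gene's own strand up to the base before the start site, with each CpG in capitals. Nkx6-2 lies at chr7:139582798-139583047 on the minus strand and holds 26 CpG sites, Msx2 at chr13:53472781-53473030 on the minus strand holds 16, and Msx1 at chr5:37824586-37824835 on the minus strand holds 20.
Nkx6-2: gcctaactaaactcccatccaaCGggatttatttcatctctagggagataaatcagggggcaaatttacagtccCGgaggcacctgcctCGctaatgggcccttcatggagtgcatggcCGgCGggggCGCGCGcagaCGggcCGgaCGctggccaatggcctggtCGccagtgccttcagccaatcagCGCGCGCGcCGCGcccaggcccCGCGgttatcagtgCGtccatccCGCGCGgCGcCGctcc
Msx2: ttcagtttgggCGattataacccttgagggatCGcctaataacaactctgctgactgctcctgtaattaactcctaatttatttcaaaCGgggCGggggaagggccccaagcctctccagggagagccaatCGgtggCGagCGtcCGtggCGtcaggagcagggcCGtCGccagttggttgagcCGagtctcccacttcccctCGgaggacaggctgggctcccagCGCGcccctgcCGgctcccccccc
Msx1: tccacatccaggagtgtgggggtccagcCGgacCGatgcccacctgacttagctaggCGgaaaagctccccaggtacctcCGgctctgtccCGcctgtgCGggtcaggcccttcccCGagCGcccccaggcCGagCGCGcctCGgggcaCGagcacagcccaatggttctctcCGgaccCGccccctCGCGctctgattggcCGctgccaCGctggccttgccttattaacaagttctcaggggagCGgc
The pair at the high end and the gene at the low end are all CpG-rich in this window.

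Libraries held 7342015 reads (TET_WT day 1 replicate 2) to 51604034 reads (day 0 replicate 1). Gene values of replicates correlated over genes at Pearson r = 0.978 to 0.981 within the day 2 groups and 0.935 to 0.957 at day 0, where replicate 2 stood apart in its distribution of values, and 0.949 at day 1. The labels do not say that replicates were separate cultures, so p-values measure only the spread between these libraries. At day 2 against day 0, 8 of 8 markers of naive ES cells, 2 of 4 EpiLC markers and 1 of 6 fibroblast markers were called higher, against 15.3% of all genes. The fibroblast marker was Thy1 (difference 0.54, adjusted p = 0.0149 by limma), and 3 of these 6 differences were negative. Naive and EpiLC markers moved the same way, with median differences of 1.88 and 0.53, so they cannot check the culture stage. More cells with the mark and more mark per cell cannot be told apart in these bulk samples, and RPKM, reads per kilobase scaled to each library's total, hides any change in the total amount of 5hmC. The part of cell composition in the results was not tested.

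In ES cells at day 0 the 40 genes sat near the middle of all genes and spread over a wide range. A gene's level is the mean log2 RPKM over its tiles, which is already per length. The median level of the 40 was -0.22 (all genes -0.31), at a median percentile of 52.8. The 4 highest were Irx3, an Iroquois factor of neural and heart patterning, at 1.53 ± 0.32 (SD, n = 3), Irx6 at 1.23 ± 0.31, Tlx1, needed for the spleen, at 1.23 ± 0.18, and Irx4, a factor of the heart ventricles, at 1.10 ± 0.10. These 4 lay above the 90th percentile of all genes, and no neighbours in their order differed by more than the larger of their SDs. The 4 lowest were Tlx2, a factor of the enteric nervous system, at -2.13 ± 0.30, Dlx6, a factor of jaw and limb, at -1.70 ± 0.36, Six2, which keeps nephron progenitors, at -1.32 ± 0.44, and Lhx9, a gonad factor, at -1.26 ± 0.51. Tlx2 stood at percentile 18.7 and lay under Dlx6 by more than either SD, while the other neighbours among these 4 differed by less than the larger of their SDs.

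The members ranked higher among all genes at day 2, and higher still in the other line. Its median percentile was 56.1 at day 1, 67.0 at day 2 in TET_WT and 88.8 in DNMT_WT, and the number of members above the 90th percentile went from 4 to 7, 10 and 19. Set against the median of all genes in the same library, the members' median was 0.10, 0.44 and 0.01 log2 units higher in day 0 replicates 1, 2 and 3 and 0.24 and 0.15 at day 1. At day 2 it was 0.65, 0.56 and 0.50 in TET_WT and 1.48, 1.63 and 1.43 in DNMT_WT. The day 2 libraries of each line lay above all day 0 and day 1 libraries on this measure, and those of DNMT_WT above all of TET_WT.

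**Figure D1:**
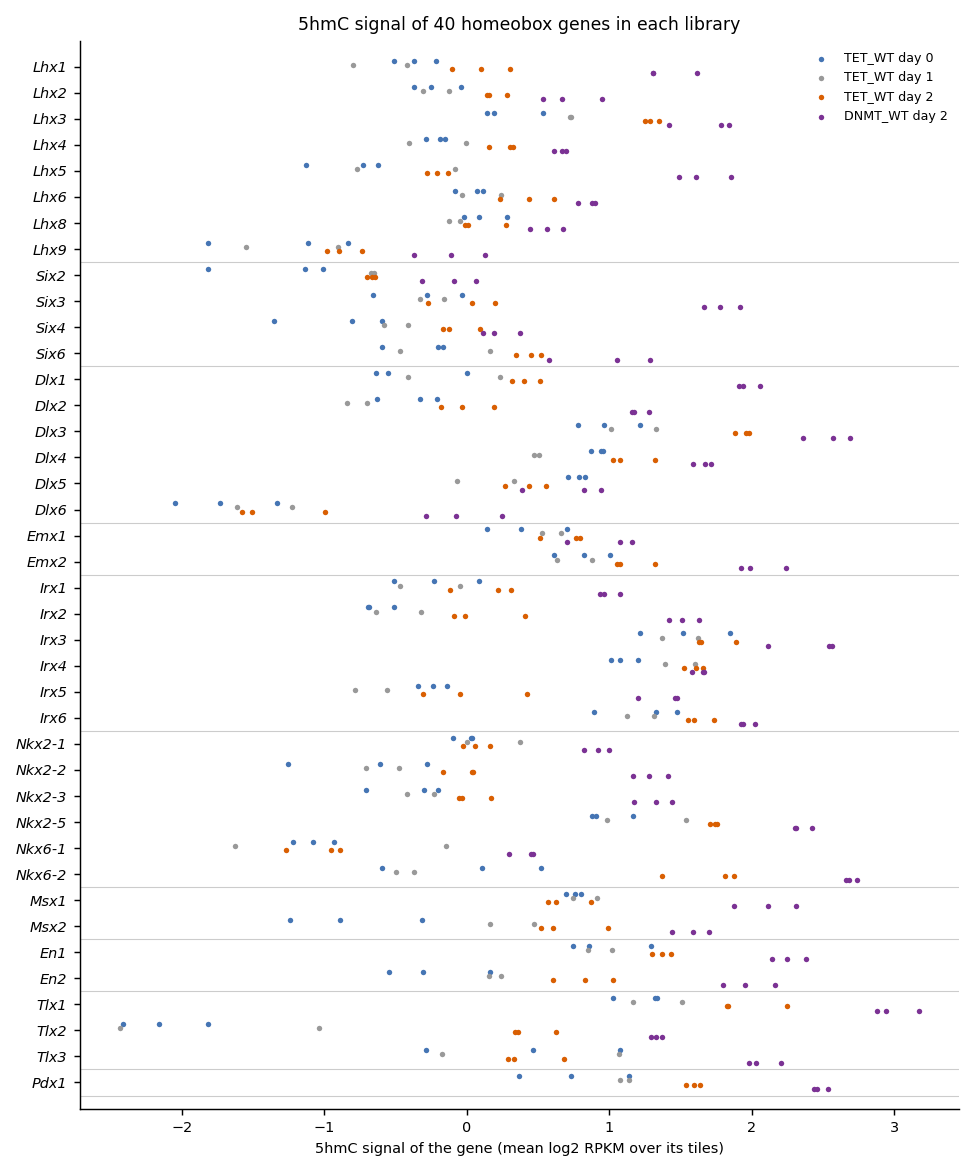
Level of each of the 40 homeobox genes (mean log2 RPKM over its tiles) in the 11 libraries, 1 point per library, coloured by group, with grey lines between families. DNMT_WT points lie to the right of the TET_WT day 2 points for 37 of the 40 genes without overlap.

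Day 2 was compared with day 0 in TET_WT to ask which of these genes changed in 5hmC as ES cells left the naive state. Of the 40 genes, 21 rose and 0 fell (adjusted p under 0.05, limma, Benjamini-Hochberg over all measured genes), against 15.3% of all genes higher and 2.51% lower. The median difference was 0.42 log2 units over the 40 and 0.09 over all genes. Of the 40 differences 37 were positive, as were 12643 of 20717 over all genes. In 27 genes every day 2 library lay above every day 0 library (23.6% of all genes), and in 1, Dlx5, below (7.95% of all genes). The median over all genes moved with the scaling, to 0.18 with median centring and -0.03 with quantile normalization. The members' median minus it was 0.33 in the fit used here and with quantile normalization. Median centring shifts all genes of a library alike, so it cannot change this value. With median centring 9 members were called higher, and with quantile normalization 13 higher and Dlx5 lower, while calls over all genes split into 1804 higher and 1762 lower there, against 3170 and 519. With voom on recovered reads 22 members were called higher and 2, Dlx5 and Tlx3, lower, and over all genes 3494 and 2699.

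The TLX genes held the largest change. Tlx2 (chromosome 6, 83068325 to 83070225) had levels of -1.82, -2.16 and -2.41 log2 RPKM in the day 0 libraries, -1.04 and -2.44 at day 1, and 0.63, 0.36 and 0.34 at day 2. The day 2 libraries lay far above all 5 earlier ones, and Tlx2 went from percentile 18.7 to 67.6 of genes. It rose by 2.57 (SE 0.28, adjusted p = 7.03e-05), a 5.95-fold change, and stayed called in all 22 alternatives in which it could be measured. Its window also holds part of Dqx1, so the tiles on that side belong to both genes. Tlx1 had levels of 1.02, 1.32 and 1.34 at day 0 and 1.83, 2.25 and 1.83 at day 2, without overlap, and rose by 0.74 (SE 0.14, adjusted p = 0.00285). Tlx3, a selector of sensory and spinal neurons, spread from -0.29 to 1.07 at day 0 around its day 2 levels of 0.29, 0.68 and 0.33, and differed by 0.02 (SE 0.32, adjusted p = 0.983), although voom called it lower (-0.45, adjusted p = 0.0314).

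Among the NKX genes 3 of 6 rose. Nkx6-2, a factor of spinal cord and oligodendrocyte patterning (chromosome 7, 139579376 to 139582797, the first promoter printed above), had levels of 0.11, 0.52 and -0.59 log2 RPKM at day 0, -0.37 and -0.50 at day 1 and 1.81, 1.87 and 1.37 at day 2. The day 2 libraries did not overlap the earlier ones. It rose by 1.67 (SE 0.22, adjusted p = 0.000229), from percentile 60.1 to 96.9 of genes, and its window shares tiles with Inpp5a. Nkx2-5, a core factor of the heart, rose by 0.75 (SE 0.13, adjusted p = 0.00136). Nkx2-2, which patterns ventral spinal cord and pancreatic islets, rose by 0.69 (SE 0.20, adjusted p = 0.0304), a call that ended on leaving out any of 5 libraries (adjusted p up to 0.0957, without day 2 replicate 3). Nkx2-1, Nkx2-3 and Nkx6-1 differed by 0.08, 0.43 and 0.04 and were not called.

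The MSX pair, both targets of BMP signalling in face, teeth and limb, parted. Msx2 (chromosome 13, 53466881 to 53472780) had levels of -0.89, -1.24 and -0.32 log2 RPKM at day 0, 0.47 and 0.16 at day 1 and 0.99, 0.52 and 0.60 at day 2. Every day 1 library was already above every day 0 library. Msx2 rose by 1.52 between day 0 and day 2 (SE 0.20, adjusted p = 0.000282). Msx1 (chromosome 5, 37820491 to 37824585) stood at 0.70, 0.80 and 0.76 at day 0 and 0.87, 0.57 and 0.62 at day 2, which overlap, and differed by -0.06 (SE 0.12, adjusted p = 0.805). The difference between the paralogues was itself not tested.

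Both EN genes, which set the midbrain-hindbrain boundary, rose. En2 (chromosome 5, 28165696 to 28172190) had levels of -0.55, 0.16 and -0.31 log2 RPKM at day 0, 0.16 and 0.24 at day 1 and 0.60, 1.02 and 0.83 at day 2, and rose by 1.05 (SE 0.17, adjusted p = 0.000948). En1 rose by 0.40 (SE 0.13, adjusted p = 0.0462), but leaving out any of 10 of the 11 libraries ended that call, with an adjusted p of up to 0.179 without day 0 replicate 1. Pdx1, the master factor of the pancreas (chromosome 5, 147270097 to 147275848), had levels of 0.36, 1.14 and 0.73 at day 0, 1.07 and 1.14 at day 1 and 1.64, 1.54 and 1.60 at day 2. All 3 day 2 libraries lay above the 5 earlier ones. Pdx1 rose by 0.85 (SE 0.15, adjusted p = 0.00158), a call lost with median centring (adjusted p = 0.0532).

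Of the 8 LIM genes 5 rose. Lhx3, a factor of the pituitary and motor neurons (chromosome 2, 26200212 to 26208249), had levels of 0.14, 0.53 and 0.19 log2 RPKM at day 0, 0.73 and 0.73 at day 1 and 1.28, 1.35 and 1.25 at day 2. The 3 stages did not overlap. Lhx3 rose by 1.004 from day 0 to day 2 (SE 0.13, adjusted p = 0.0002), and its window includes part of Qsox2. The other 4 rose less: Lhx5, a forebrain factor, by 0.62 (adjusted p = 0.0324), Lhx4, the paralogue of Lhx3, by 0.47 (adjusted p = 0.0172), Lhx1, a factor of the head organizer and kidney, by 0.46 (adjusted p = 0.0485), and Lhx6, a factor of cortical interneurons, by 0.39 (adjusted p = 0.0412). Each of these 4 calls could be ended by leaving out 1 library. The number of libraries whose removal ended the call was 5 for Lhx5, 2 for Lhx4, 8 for Lhx1 and 7 for Lhx6. The highest adjusted p values were 0.123 without day 0 replicate 3, 0.0736 without day 2 replicate 3, 0.200 without day 2 replicate 3 and 0.182 without day 2 replicate 1, in that order. Lhx8, a factor of cholinergic neurons, differed by -0.03 (SE 0.12, adjusted p = 0.936).

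Of the 4 sine oculis genes, factors of eye, muscle and kidney, 3 rose. Six4 (chromosome 12, 73099609 to 73114031) had levels of -0.59, -1.35 and -0.81 log2 RPKM at day 0, -0.41 and -0.58 at day 1 and 0.09, -0.17 and -0.12 at day 2, and rose by 0.85 (SE 0.18, adjusted p = 0.00621). Its window includes part of Mnat1. Six6, an eye and pituitary factor, rose by 0.76 (SE 0.20, adjusted p = 0.0176), and its call ended without day 2 replicate 1 (adjusted p = 0.0606) or 3. Six2 rose by 0.65 (SE 0.20, adjusted p = 0.0427), a call that ended without any of 9 libraries (up to 0.149, without day 0 replicate 1). Six3, which keeps the anterior brain, differed by 0.31 (SE 0.16, adjusted p = 0.232).

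The DLX genes, which pattern jaws, limbs and forebrain interneurons, gave 2 of 6 higher. Dlx3, a factor of skin, teeth and placenta (chromosome 11, 95120117 to 95125296), had levels of 0.96, 1.22 and 0.78 log2 RPKM at day 0 and 1.96, 1.98 and 1.88 at day 2, without overlap, and rose by 0.95 (SE 0.13, adjusted p = 0.000252). Dlx1 rose by 0.81 (SE 0.18, adjusted p = 0.00769). Dlx5 (chromosome 6, 6877801 to 6882068) was the member with the most negative difference. It had levels of 0.83, 0.79 and 0.71 at day 0, -0.07 and 0.33 at day 1 and 0.55, 0.27 and 0.43 at day 2, so that all 5 later TET_WT libraries lay below all 3 of day 0. Its difference of -0.36 between day 2 and day 0 (SE 0.15, adjusted p = 0.132) was not called here but was called lower with quantile normalization (-0.56, adjusted p = 0.0337), without the filter on tiles (-0.43, 0.0484), without the 2 kb extension (-0.73, 0.00497) and with voom (-0.73, 0.0033).

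Of the 6 IRX genes 2 rose. Irx2 rose by 0.73 (SE 0.15, adjusted p = 0.00383) from levels of -0.69, -0.51 and -0.70 log2 RPKM to -0.09, -0.01 and 0.40. Irx4 had levels of 1.01, 1.20 and 1.08 at day 0, 1.39 and 1.60 at day 1 and 1.53, 1.66 and 1.61 at day 2, and rose by 0.50 (SE 0.09, adjusted p = 0.00189), with both day 1 libraries already above all of day 0. Irx1, Irx3, Irx5 and Irx6 were not called, nor were Emx1 and Emx2, which pattern the cerebral cortex (differences 0.29 and 0.34).

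Many of these calls depended on the window and the scaling. With the window extended by 20 kb in place of 2 kb, 10 of the 21 calls ended (adjusted p from 0.0683 to 0.973). The difference of Irx4 became 0.011, that of Nkx2-2 0.16, of Irx2 and Nkx6-2 0.19 each, of Lhx4 0.24, of Msx2 0.25, of Lhx6 0.28, of En1 0.30, of Six6 0.31 and of Nkx2-5 0.34. Without any extension 5 calls ended, those of Dlx1 (0.44, adjusted p = 0.416), Irx2 (0.41, 0.215), Lhx1, Lhx5 and Six6, and Tlx2 held too few tiles. Median centring ended 12 calls: Dlx1 (adjusted p = 0.0801), Irx4 (0.138), Nkx2-5 (0.0716), Tlx1 (0.0637), Pdx1, En1, Nkx2-2, Six2, Lhx1, Lhx4, Lhx5 and Lhx6. At equal depth Dlx1 (0.119), Irx4 (0.0542), Tlx1 (0.0621), En1, Lhx6 and Nkx2-2 lost their calls. Quantile normalization ended 8 calls, all among En1, Nkx2-2, Six2, Six6 and the called LIM genes other than Lhx3. Leaving out day 0 replicate 2, which stands apart, added calls for Nkx2-3 (adjusted p = 0.0177), Emx2 (0.0267), Emx1 (0.0462) and Six3 (0.0496).

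Over these members, Tlx2, Lhx3, En2, Dlx3 and Six4 were called higher in every alternative in which they could be measured, including each left-out library, while of 23 alternatives En1 was called in 4, Lhx6 in 7, Six2 in 9 and Lhx1 in 10. Among 61 other homeobox genes outside the Hox clusters, 27 rose and 0 fell, with a median of 0.45. Nkx1-2 rose by 2.14 (adjusted p = 0.000113) and Meox1 by 0.96 (adjusted p = 0.0002). Of 39 Hox genes 26 rose and 0 fell, with a median of 0.73. The lists were not tested against each other.

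**Figure D2:**
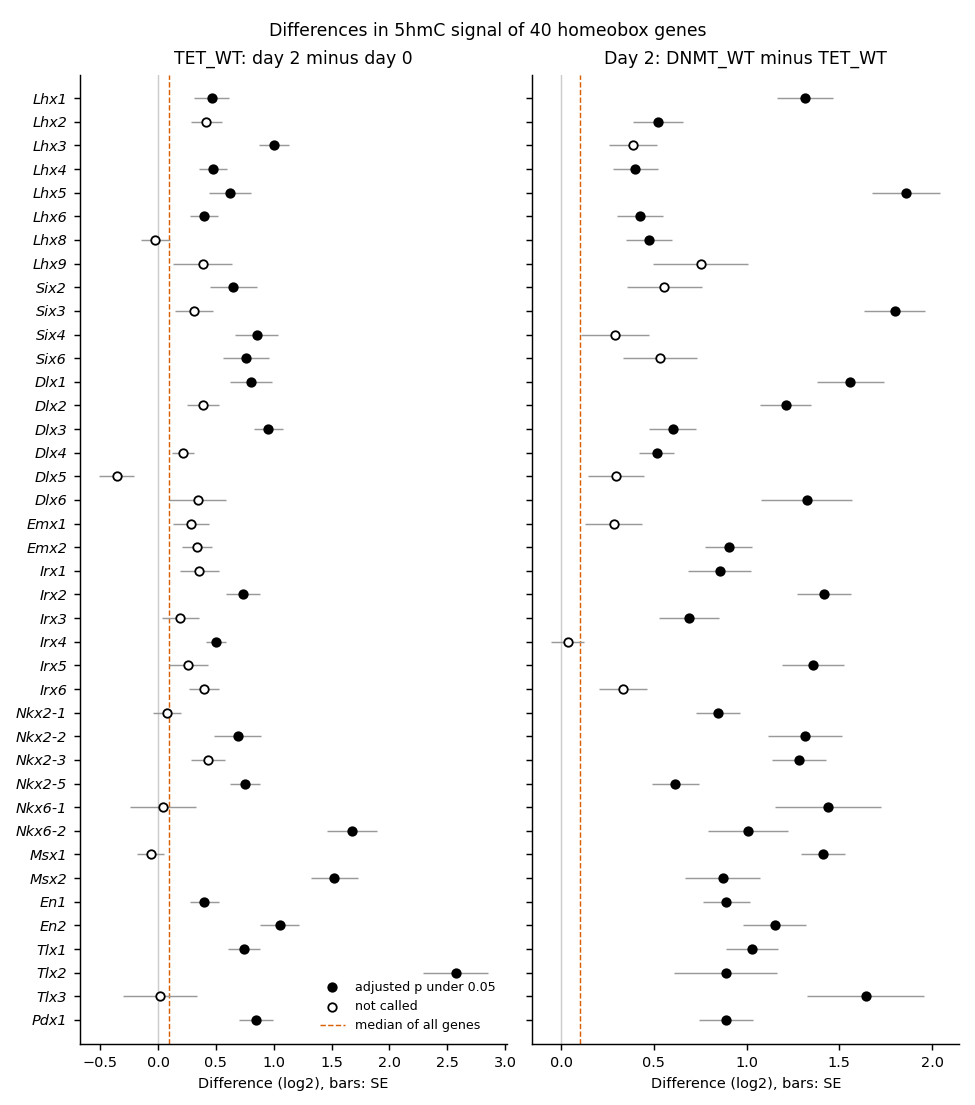
Difference in level (log2) with its SE for each of the 40 genes, day 2 minus day 0 in TET_WT on the left and DNMT_WT minus TET_WT at day 2 on the right. Filled points passed an adjusted p of 0.05 (21 on the left, 31 on the right), and the dashed line is the median over all genes (0.09 and 0.10).

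Day 1 was compared with day 0 to see what had changed after 1 day. In 5 members both day 1 libraries lay above all 3 of day 0, and in 5 below (13.4% and 8.69% of all genes). No member was called (0 of 40, and 0.0% of all genes, by limma), 10 of the 40 had an unadjusted p under 0.05, as did 2551 of all genes, and voom called 0 members and 54 genes higher and 121 lower. The 3 members with the smallest p were Msx2, with a difference of 1.13 (SE 0.23, adjusted p = 0.0907), Dlx4, with -0.43 (adjusted p = 0.136), and Irx4, with 0.40 (adjusted p = 0.139). Dlx4, which neighbours Dlx3, had 0.96, 0.94 and 0.87 log2 RPKM at day 0 and 0.51 and 0.47 at day 1. Msx2 was called without day 0 replicate 3 (1.38, adjusted p = 0.0302) and Irx4 without day 0 replicate 2 (0.45, adjusted p = 0.0384). Day 1 replicate 2 was the shallowest library, and all differences with day 1 rest on 2 libraries. Tlx2 differed by 0.40 (-0.30 without day 1 replicate 2 and 1.10 without replicate 3) and Pdx1 by 0.36 (called without day 0 replicate 2, adjusted p = 0.0387), both uncalled with all libraries.

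Between day 1 and day 2, 11 members rose and 0 fell (8.99% and 0.599% of all genes), with a median of 0.41 against 0.00 over all genes. In 26 members the day 2 libraries all lay above those of day 1 and in 0 below (28.2% and 22.1% of all genes). Day 2 libraries are the same as in the comparison with day 0. Tlx2 rose by 2.18 (SE 0.31, adjusted p = 0.00111) and Nkx6-2 by 2.12 (SE 0.24, adjusted p = 0.000301), and these were the 2 calls kept in every alternative in which the gene could be measured. Dlx4 rose by 0.65 (SE 0.11, adjusted p = 0.00239), from 0.51 and 0.47 log2 RPKM at day 1 to 1.02, 1.32 and 1.07 at day 2. Dlx3 and Dlx2 rose by 0.77 each, Lhx1 by 0.71, Irx5 by 0.70, Tlx1 by 0.63, Irx2 by 0.58, Lhx3 by 0.56 and Lhx4 by 0.46. Msx2 differed by 0.39 (adjusted p = 0.331) and Pdx1 by 0.48 (adjusted p = 0.0844, and 0.0081 without day 0 replicate 2). The count of 11 went to 6 without day 1 replicate 2, to 5 and 7 without day 2 replicates 2 and 3, to 17 without day 0 replicate 2, and to 2 with median centring or voom. Median centring and voom each ended the calls of all 9 others, and 20 kb of extension those of Irx2 (0.11), Irx5 (0.017), Lhx1 (0.21), Lhx3 (0.27) and Lhx4 (0.26). Removing 1 library ended the calls of Dlx2 and Tlx1 (adjusted p up to 0.0701 and 0.248), Lhx1 (0.189), Irx2 (0.316) and Lhx3 (0.122), in each case highest without day 1 replicate 2, and of Irx5 (0.162) and Lhx4 (0.289), highest without day 1 replicate 3.

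DNMT_WT was compared with TET_WT at day 2 to see how far the 2 wild-type lines differ at the same stage. All 40 differences were positive, as were 12531 of 20717 over all genes. Of the 40, 31 genes were higher in DNMT_WT and 0 lower, against 14.9% of all genes higher and 4.07% lower. The median difference was 0.88 over the 40 and 0.10 over all genes. In 37 members the libraries of the lines did not overlap, all with DNMT_WT higher (32.8% of all genes, and 15.5% in the other direction). All 6 NKX genes, both MSX genes, both EN genes, all 3 TLX genes and Pdx1 were called, with 6 of 8 LIM, 5 of 6 DLX, 4 of 6 IRX, 1 of 4 sine oculis and 1 of 2 EMX genes. Of the 6 fibroblast markers, 4 differences were positive and 2 negative, with a median of 0.11. Thy1, named above, was the 1 called, higher in DNMT_WT (0.71, adjusted p = 0.00378 by limma). Col1a2 differed by -0.53 (adjusted p = 0.136) and was not called. Line and culture or batch cannot be told apart here, and the TET_WT day 2 libraries are those used above.

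Lhx5 (chromosome 5, 120431886 to 120441457) had levels of -0.14, -0.21 and -0.28 log2 RPKM in TET_WT and 1.61, 1.85 and 1.49 in DNMT_WT, and was higher by 1.86 (SE 0.18, adjusted p = 7.29e-05), a 3.63-fold difference. Six3 (chromosome 17, 85613608 to 85626191) had -0.27, 0.20 and 0.04 against 1.78, 1.92 and 1.66, and was higher by 1.80 (SE 0.16, adjusted p = 4.91e-05). The lines stood far apart at these 2 genes of the anterior brain. Msx1, whose promoter is printed above and which was not called between day 0 and day 2, had 0.87, 0.57 and 0.62 in TET_WT against 2.31, 2.11 and 1.88 in DNMT_WT. It was higher by 1.41 (SE 0.12), with the smallest adjusted p of the 40 (3.39e-05), and its percentile among genes was 74.8 in TET_WT and 97.7 in DNMT_WT.

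The other called differences came from every family but the sine oculis genes, of which only Six3 was called. Tlx3, not called between day 0 and day 2, was higher by 1.64 (SE 0.32, adjusted p = 0.00404), with 2.21, 2.03 and 1.98 log2 RPKM in DNMT_WT. Dlx1 was higher by 1.56, Nkx6-1, a factor of beta cells and motor neurons, by 1.44, Irx2 by 1.42, Irx5 by 1.36, Dlx6 by 1.32, Lhx1 and Nkx2-2 by 1.31 each, Nkx2-3, a factor of spleen and gut, by 1.28, and Dlx2 by 1.21. En2 was higher by 1.15, Tlx1 by 1.03, Nkx6-2 by 1.01, Emx2 by 0.90, En1, Tlx2 and Pdx1 by 0.89 each, Msx2 by 0.87, Irx1 and Nkx2-1, a thyroid and lung factor, by 0.85 each. Irx3 by 0.69, Nkx2-5 by 0.61, Dlx3 by 0.60, Lhx2, an eye and forebrain factor, and Dlx4 by 0.52, Lhx8 by 0.47, Lhx6 by 0.43 and Lhx4 by 0.40 made up the smaller called differences. Tlx1 was the highest of the 40 in DNMT_WT, at 2.999 ± 0.16 (SD, n = 3). Irx4, which had risen in TET_WT, stood at 1.53, 1.66 and 1.61 against 1.58, 1.65 and 1.67 and differed by 0.04 (SE 0.09, adjusted p = 0.836).

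The 8 other uncalled genes differed by 0.28 (Emx1) to 0.75 (Lhx9, adjusted p = 0.0574, called in 9 of 23 alternatives, with 0.0129 without day 0 replicate 2). The calls of Tlx2, Lhx4, Lhx6, Lhx8 and Lhx2 each ended on leaving out any of 3 to 6 libraries, with adjusted p values of up to 0.119 for Tlx2 (without day 2 replicate 3 of TET_WT), 0.151 for Lhx4 (without TET_WT day 2 replicate 1), 0.130 for Lhx6 (without replicate 3), 0.0878 for Lhx8 (without replicate 1) and 0.0872 for Lhx2 (without DNMT_WT replicate 2). With the window extended by 20 kb, 13 of the 31 calls ended. Irx1 then stood at -0.30, En1 at 0.12, Nkx6-1 and Lhx6 at 0.13 each, Nkx6-2 at 0.14, Lhx8 at 0.17, Msx2 at 0.18, Nkx2-1 and Lhx4 at 0.20 each, Dlx3 at 0.23, Nkx2-5 at 0.27, Irx3 at 0.28 and Irx2 at 0.43 (adjusted p from 0.0508 to 0.665). Quantile normalization ended 12 calls, those of Dlx3, Dlx4, Irx1, Irx3, Lhx2, Lhx4, Lhx6, Lhx8, Msx2, Nkx2-5, Nkx6-2 and Tlx2, and median centring 6, those of Dlx3, Nkx2-5, Lhx2, Lhx4, Lhx6 and Lhx8. Equal depth ended those of Tlx2 and Lhx8, a fit without the trend those of Tlx2, Lhx4 and Lhx6, and voom that of Lhx4 alone.

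In quantile-normalized values 19 members were called higher and 1, Irx4, lower (-0.23, adjusted p = 0.0402), with the members' median 0.63 above that of all genes in place of 0.78, and over all genes 868 were higher and 1578 lower, against 3086 and 843. With voom the split over all genes was 2608 higher and 2859 lower, and 33 members were called, all higher. Of 61 other homeobox genes 36 were higher and 4 lower (median 0.74, Uncx 2.06 and Isl2 1.55), and of 39 Hox genes 37 were higher and 0 lower (median 1.21, Hoxb7 2.32 and Hoxc6 1.32).

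The regions from 2 to 20 kb on each side were measured to see whether the surroundings changed with the genes. Between day 0 and day 2 these flanks were called higher at 8 members and lower at 3 (16.2% and 3.56% of all flanks), with a median of 0.19 against 0.07. The share of flanks called higher was near that of all genes. Six4 was the member whose flanks rose most, by 1.17 (SE 0.19, adjusted p = 2.23e-05) against 0.85 in the gene, and the flanks of Irx6 fell by 0.60 (adjusted p = 0.00107). The other calls were Dlx2 at 0.51, Lhx5 at 0.46, Nkx2-3 and Tlx1 at 0.39 each, Dlx4 at 0.34, Dlx3 at 0.29, Dlx1 at 0.28, Dlx6 at -0.35 and Lhx8 at -0.41. The flanks of Dlx1, Dlx3 and Dlx5 hold Dlx2, Dlx4 and Dlx6 and the reverse, and those of Tlx2 hold Lbx2, so these are not independent of other homeobox genes. The count of flank calls went from 11 to between 3 (without day 2 replicate 2) and 7 on leaving out 1 of 6 libraries.

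The gene minus its own flanks, fitted in the same way, separated the members further. From day 0 to day 2, 8 members rose against their flanks and 0 fell (3.64% and 1.85% of all genes), with a median of 0.31 against 0.03. Tlx2 led, with 2.31 (SE 0.38, adjusted p = 0.00833), then Nkx6-2 with 1.90 (SE 0.24, adjusted p = 0.00324), Msx2 with 1.69 (SE 0.18, adjusted p = 0.00169), Irx6 with 0.9997, Lhx3 with 0.997, En2 with 0.98, Dlx3 with 0.66 and Lhx4 with 0.61. Tlx2, Nkx6-2, Msx2 and Lhx3 kept this call in all alternatives tried, and their flanks differed by 0.26, -0.22, -0.17 and 0.01, none of them called. At Irx6 the gene itself was not called (0.40, adjusted p = 0.052 by limma), and its flanks differed by -0.60. The count of 8 fell to 4 or 5 on leaving out day 0 replicate 1 or 3 or any day 2 library. The calls of En2, Dlx3, Irx6 and Lhx4 ended without 4, 5, 5 and 9 libraries, with adjusted p values of up to 0.0899, 0.114, 0.101 and 0.152.

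Between the lines the flanks were higher at 14 members and lower at 0 (18.6% and 5.84% of all flanks), with a median of 0.16, and Dlx2 (0.96), Dlx1 (0.71) and Nkx2-3 (0.68) led. That count became 7 without TET_WT day 2 replicate 1 or 3, 9 without DNMT_WT replicate 2 and 6 without DNMT_WT replicate 3. Gene minus flank was higher in DNMT_WT at 8 members and lower at 0 (0.483% and 0.145% of all genes), with a median of 0.62 against 0.03. The 8 were Nkx6-1 (1.78), Irx1 (1.47), Irx2 (1.45), Lhx5 (1.40), Six3 (1.35), Nkx2-2 (1.31), Irx5 (1.26) and Tlx1 (0.87), and Pdx1 stood at 0.56 and Tlx2 at 0.51. In 39 of the 40 the difference was more positive in the gene than in its flanks, as it was in 11225 of 20701 genes. Leaving out DNMT_WT replicate 1 or 2 left 0 of these calls, and leaving out DNMT_WT replicate 3 or a TET_WT day 2 library left 1 to 3. In Hox genes 39 of 39 flanks were called higher and the gene-minus-flank median was 0.08, and the lists were not tested against each other. The fits of the flanks and of gene minus flank between the lines were added after the data were seen.

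**Figure D3:**
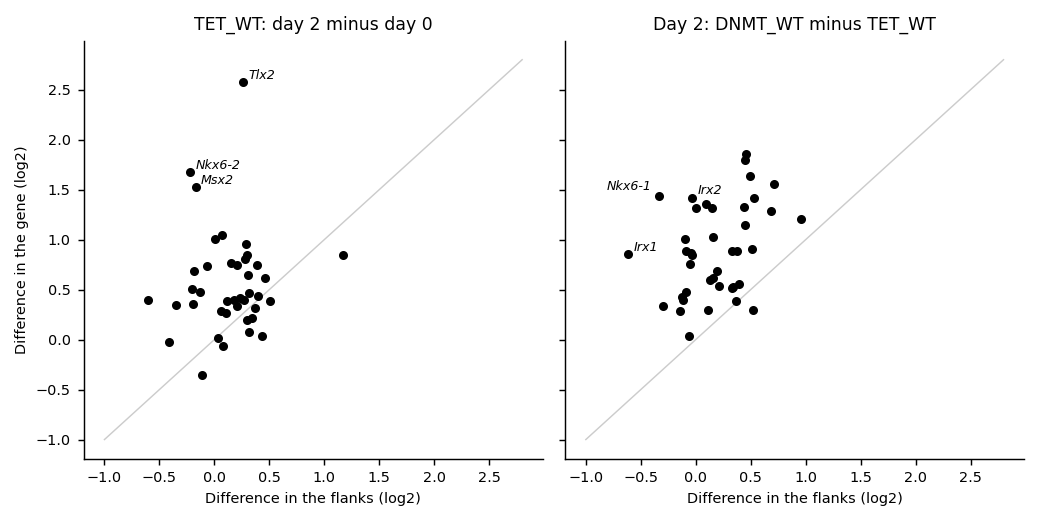
Difference in the gene (vertical axis, log2) against the difference in its flanks (horizontal axis, log2) for the 40 genes, in TET_WT between day 0 and day 2 and between the lines at day 2. Points above the diagonal have a more positive difference in the gene than in its flanks, also where the flanks fell. Tlx2, Nkx6-2 and Msx2 stand farthest above it on the left, Nkx6-1, Irx1 and Irx2 on the right.

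Single 2 kb tiles showed where in or beside the genes the signal rose. From day 0 to day 2, 83 of 323 tiles in 31 members rose and 2 fell (limma over all tiles), against 5.33% and 2.68% of all tiles and 7.52% and 3.29% of tiles in the windows of measured genes. Of the 83, 27 lay within 2 kb outside the gene, where 80 tiles were tested. The largest rise was at Tlx2, in the tile at chromosome 6, 83070001 to 83072000. Most of this tile lies outside the gene span, past its higher coordinate of 83070225. No start site was found for Tlx2, so which end of the gene this is was not determined. The tile held 8, 4 and 0 reads at day 0, 2 and 5 at day 1 and 40, 20 and 38 at day 2 (difference 4.11, SE 0.52, adjusted p = 6.88e-11). A tile without reads carries the value of 0.9 reads, which fixes the low end of that difference. The neighbouring tile at 83072001 to 83074000, outside the gene, rose by 2.57, from 14, 9 and 19 to 64, 33 and 48 reads. At Nkx6-2, whose window shares tiles with Inpp5a, the largest called rise lay at the edge away from the start site. The tile there, at chromosome 7, 139578001 to 139580000, rose by 2.93. It held 37, 35 and 31 reads at day 0, 11 and 42 at day 1 and 158, 151 and 151 at day 2.

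Msx2 rose in 4 of its 6 tiles. The tile at chromosome 13, 53470001 to 53472000, next to the start-site tile, held 10, 2 and 28 reads at day 0 and 53, 35 and 39 at day 2 (difference 3.10, SE 0.41), and the tile at 53464001 to 53466000, beyond the far end of the gene, went from 7, 10 and 19 to 63, 33 and 57 reads (2.92). In Irx2, the tile at chromosome 13, 72636001 to 72638000, beyond its far end, went from 10, 6 and 12 to 28, 40 and 40 reads (2.75). The 2 tiles that fell were in Dlx5, at chromosome 6, 6880001 to 6882000, with 371, 247 and 256 reads at day 0 and 114, 60 and 98 at day 2 (-0.95, SE 0.18, adjusted p = 3.3e-05), and beside Tlx3, at chromosome 11, 33198001 to 33200000 (-0.64, adjusted p = 0.000377). The fall in Dlx5 was already present at day 1, with 23 and 118 reads in libraries of 7342015 and 27484281 reads. Without the variance trend in the fit, 10 member tiles were called in either direction in place of 85.

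Between the lines 115 tiles in 36 members were higher in DNMT_WT and 2 lower (1.0% and 2.24% of all tiles, 1.53% and 2.31% of tiles in gene windows). The largest was in Lhx5, at chromosome 5, 120436001 to 120438000, with 6, 2 and 2 reads in TET_WT and 102, 51 and 68 in DNMT_WT at day 2 (difference 4.49, SE 0.77, adjusted p = 8.75e-06). The start-site tile of Irx2, at chromosome 13, 72628001 to 72630000, held 3, 1 and 7 against 43, 29 and 29 reads (3.46, adjusted p = 0.0024). All 5 tiles of Msx1 and of Dlx1 and all 4 of Tlx3 were higher, with 8 of 10 in Six3 and 7 of 8 in Lhx5. Both lower tiles lay at Irx4, at 73256001 to 73258000 (-1.03, adjusted p = 0.0104) and 73266001 to 73268000 (-0.86, adjusted p = 0.023) on chromosome 13, while 2 others of its 8 tiles were higher. Without the variance trend 7 member tiles were called in place of 117.

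**Figure D4:**
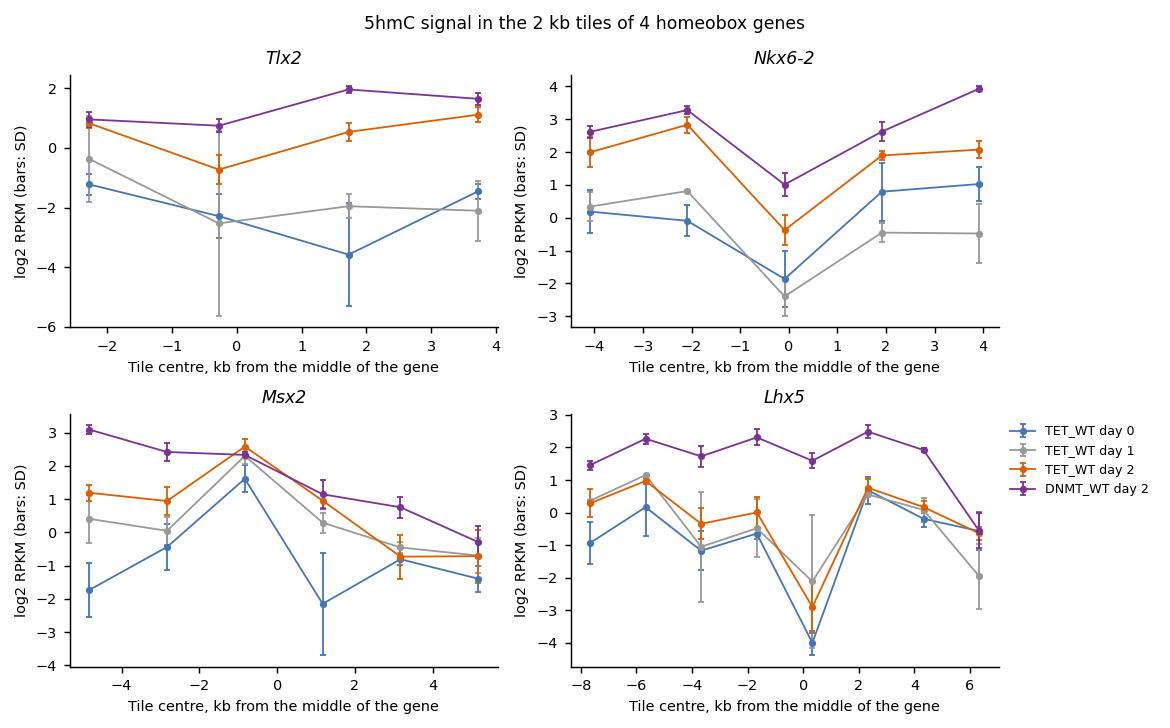
Mean log2 RPKM with SD over libraries in each 2 kb tile of Tlx2, Nkx6-2, Msx2 and Lhx5, against the distance of the tile's centre from the middle of the gene (kb), for the 4 groups. Day 2 of TET_WT lies above day 0 across most tiles of Tlx2, Nkx6-2 and Msx2, while in Lhx5 DNMT_WT stands apart from all TET_WT groups.

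In the profile around the start site, the lines differed most at the start itself. In the 30 members with a RefSeq start site, the tile that holds it had a mean of -1.05 ± 0.26 log2 RPKM at day 0 (SD over 3 libraries), -1.15 ± 0.26 at day 1 and -0.64 ± 0.09 at day 2 in TET_WT, and 0.87 ± 0.08 in DNMT_WT. Over 16601 genes the same tile had -1.50, -1.36, -1.15 and -0.71. In TET_WT the members' signal dipped at the start and peaked 4 kb downstream, at 0.67 at day 0 and 1.11 at day 2. Each start-site tile was also set against the median of the other tested tiles up to 20 kb on either side, which reach beyond the gene. It was lower in 23, 22 and 23 of 30 members at day 0, day 1 and day 2 in TET_WT, and in 10 of 30 in DNMT_WT.

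Of the 30 start-site tiles 18 were called higher in DNMT_WT, with a median difference of 1.65, and 0 lower, against 5.31% and 1.24% of start-site tiles of all measured genes. From day 0 to day 2, 6 of 30 rose and 0 fell, against 14.7% and 1.22% of such tiles in all genes, a share not far from the members'. The difference between the lines was 1.51 at the start-site tile, 1.27 and 0.96 in the tiles 2 kb downstream and upstream, and -0.04 and -0.12 at 20 kb on those sides. Exceptions had high signal at the start in every group: Pdx1 (2.17 at day 0, 2.98 at day 2, 3.67 in DNMT_WT), Nkx2-1 (2.296, 2.396 and 3.19) and Nkx2-5 (1.95, 2.54 and 3.13). Six4 had the lowest start-site tile in every group but day 1 (-3.97, -4.09 and -3.36).

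**Figure D5:**
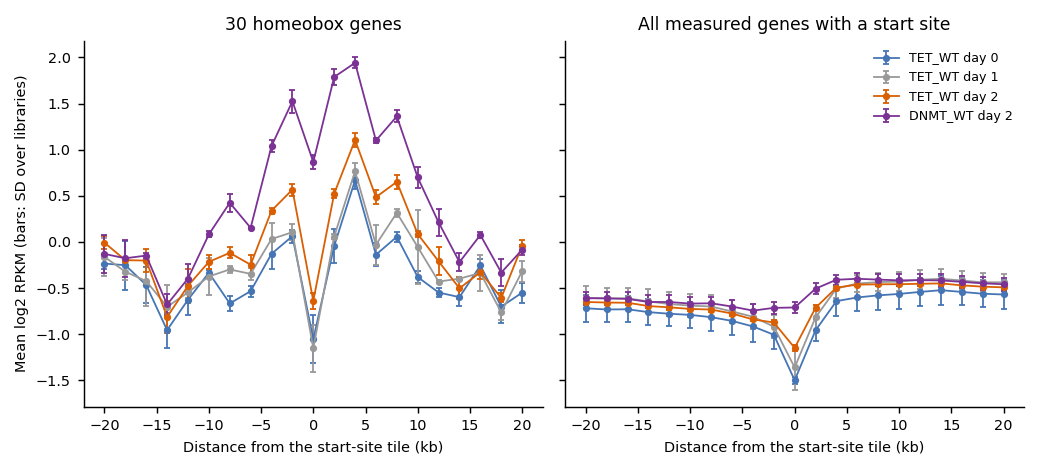
Mean log2 RPKM by distance from the tile with the start site (kb, positive downstream), in 30 homeobox genes and in all measured genes with a start site, by group, with bars for the SD over libraries. The dip at the start of the 30 genes in TET_WT, at -1.05 at day 0, stands against 0.87 in DNMT_WT, and the lines at day 2 differ by -0.12 and -0.04 at 20 kb.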

How the data were processed

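HMCP-seq libraries were analysed from 11 samples, as 3 groups of TET_WT and 1 of DNMT_WT taken from the labels. The members, lists and rules used here were chosen with earlier results of these data known. The authors deposited log2 RPKM in 1362779 tiles of 2 kb on GRCm38. Trim Galore 0.6.5, cutadapt 2.3 and Bowtie2 2.4.1 are named in the submitters' processing notes, and other steps are not given in the sources used here. A tile without reads holds the value of 0.9 reads in the deposited table, so whole reads could be recovered (values up to 50 reads were whole within 0.01 read) and gave the depth per library.

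Of 1316897 tiles on chromosomes 1 to 19 and X, tiles were dropped at both ends of mean signal (10% at the low end, 0.1% at the high end), leaving 1183888. A gene's value is the mean log2 RPKM over its tiles (span and 2 kb on either side, at least 3 tiles), for 20717 of 21631 protein-coding genes. Genes, flanks (2 to 20 kb), gene minus flank and tiles were each fitted over all features and 11 libraries with limma 3.58.1 (empirical Bayes with a variance trend, R 4.3.3), with Benjamini-Hochberg adjustment over all features and a threshold of 0.05. Tables and figures were made with Python 3.11.15, pandas 2.3.3, numpy 2.4.6 and matplotlib 3.10.9. The fits were tested on simulated data.

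The alternatives were leaving out each library, the replicate number as a block, fewer groups, no variance trend, 2 other normalizations, other tile filters, a pseudocount of 0.1 RPKM, equal depth, other windows and voom on recovered reads. Members called between day 0 and day 2, the 4 lowest differences there, the members with the 3 smallest p in the other comparisons and any called were named, with Tlx2 and Pdx1 always. The promoter CpG counts and the start-site profile were chosen after the files were seen. Knock-out lines and embryoid bodies were not analysed here.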

Additional observations from a re-analysis of the deposited data

How the results depend on the processing

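Each count of called members was recomputed under every alternative, and the cause of each change was not tested. The count of 21 between day 0 and day 2 was 9 with median centring, and 14 to 28 on leaving out 1 library. Between day 0 and day 1 the count of 0 became 1 with quantile normalization, and 0 to 2 without 1 library. Between day 1 and day 2 the count of 11 became 7 with only the groups compared or without the 2 kb extension, 6 at equal depth, 5 without the variance trend or with quantile normalization, and 2 with median centring or voom, and ran from 5 to 17 without 1 library. There the calls over all genes split into 943 higher and 565 lower with quantile normalization and 533 and 244 with voom, against 1862 and 124. Between the lines the count of 31 became 20 with quantile normalization and 26 to 35 without 1 library.

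For flanks between day 0 and day 2 the count of 11 became 7 with only the groups compared, 6 with quantile normalization, 4 without the trend and 1 with median centring (3 to 15 without 1 library). Between the lines the count of 14 flanks became 8 without the trend and 4 with quantile normalization (6 to 18). For gene minus flank the count of 8 between day 0 and day 2 became 5 with only the groups compared (4 to 10). That of 8 between the lines became 2 with quantile normalization, 4 without the tile filter, 13 with only the tiles of median signal or more and 16 with a pseudocount of 0.1 RPKM (0 to 11). Median centring cancels in gene minus flank and gave no value. Without the variance trend the tile counts of 85 and 117 became 10 and 7, and they ran from 65 to 94 and from 86 to 133 without 1 library.

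9 of the genes named changed sign. Lhx8 between day 0 and day 2 became 0.064 with median centring, 0.043 at equal depth, 0.057 without day 0 replicate 2, 0.025 without day 2 replicate 1 and 0.015 without day 2 replicate 3. Msx1 became 0.025 with median centring, 0.060 at equal depth and 0.045 with 20 kb added. Tlx3 became -0.12 with quantile normalization, -0.048 with the pseudocount, -0.45 with voom and -0.11 without day 2 replicate 2, and ran from -0.33 without day 0 replicate 3 to 0.34 without day 0 replicate 2. Nkx6-1 became -0.015 with quantile normalization, -0.0054 with the pseudocount, -0.14 at equal depth, -0.27 without the extension and -0.11 with voom, and ran from -0.036 to 0.16 without 1 library. Nkx2-1 became -0.073 with quantile normalization and -0.045 without the extension, and Nkx2-3 -0.054 at equal depth. Tlx2 between day 0 and day 1 became -0.082 with 20 kb added, and ran from -0.30 to 1.10 without 1 library. Between the lines Irx1 became -0.30 with 20 kb added, and Irx4 became -0.031 there and -0.23, called lower, with quantile normalization.

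With the replicate number as a block, the counts were 20, 0, 11 and 32 for the gene comparisons in the order above, 11 and 13 for flanks, 7 and 6 for gene minus flank and 85 and 118 for tiles. Same-numbered libraries of day 0 and day 2 correlated at 0.03, 0.03 and -0.05 in their deviations from the group means. Those of day 0 and day 1 correlated at -0.29 and -0.27, and those of day 1 and day 2 at 0.12 and 0.08. Correlations over so few libraries cannot show whether samples with the same number shared a culture or batch. Depth limits the low genes: the member with the fewest reads held 13 in 1 library.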
